A study of Arabidopsis thaliana with 4 samples.

Results

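The WRKY transcription factors and the VQ-motif proteins that bind them were followed in first-leaf RNA of Arabidopsis thaliana, in 2 libraries of the hybrid Col-0xAk-1 and 2 libraries of the inbred accession Ak-1. The set holds 52 of the 34133 loci with deposited values, namely 48 WRKY genes and the 4 VQ genes MKS1, SIB1, SIB2 and JAV1, and its members were taken by locus from a list that was drawn up with earlier results of these data known. Both groups were leaves of 14-day-old plants on Murashige and Skoog plates with 1% sucrose, from a study of heterosis in biomass, where a hybrid outgrows its parents. The hybrid carries the label genotype Col-0xAa-0 and Ak-1 the label genotype Aa-0, while the design text names Ak-0. Strain names are used here as in the titles. Col-0, the accession of the reference genome, was not analysed here as a parent, so a change in the hybrid and a Col-0 allele with its own level cannot be told apart.

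WRKY proteins are plant transcription factors with a zinc-finger domain that contacts a short DNA element called the W-box. Many WRKY genes are themselves switched on within minutes to hours of pathogen contact, wounding or other stress, and many carry W-boxes in their own promoters, so that members can act on each other. Mitogen-activated protein (MAP) kinases phosphorylate some of them, and small VQ-motif proteins bind WRKY domains and hold back or help their activity. In leaves the family is known for salicylic acid and jasmonate defence, camalexin synthesis, senescence, phosphate supply and trichome development. Subgroups I, IIa to IIe and III are the usual classes by number and type of WRKY domains.

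Levels are FPKM, fragments per length of transcript, which the authors scaled to the fragments mapped in each library. Relative depth, read from the steps between the lowest values, was 1.35 and 1.17 in the hybrid libraries, against 1 and 1.13 in the Ak-1 libraries; the total depth is unknown. The hybrid libraries stood further apart than the Ak-1 libraries, with a Pearson r across the 15905 tested loci of 0.968 within the hybrid pair, 0.990 within the Ak-1 pair and 0.926 to 0.944 between groups; loci are not independent replicates. No label says that replicates came from separate plants, so every p-value here rests on a spread between libraries that may be technical only. Defining genes of leaf mesophyll were high in all 4 libraries, while all 5 root and all 4 shoot apex markers were under 1 FPKM throughout. The summed level of 5 flower markers was 0.93 and 0.95 FPKM in the hybrid, against 2.59 and 2.12 FPKM in Ak-1. SEP3 carried that sum, with 0.77 and 0.61 FPKM in the hybrid, against 2.33 and 1.84 FPKM in Ak-1. The other 4 flower markers were under 1 FPKM in all 4 libraries. The summed level of 4 guard cell and phloem markers was 212.65 and 216.52 FPKM in the hybrid, against 162.52 and 186.86 FPKM in Ak-1. The phloem gene SUC2 carried the last sum, with 196.91 and 197.66 FPKM in the hybrid, against 144.05 and 167.90 FPKM in Ak-1. The guard cell lineage genes did not lie above Ak-1 with it: KAT1 had 6.60 and 6.81 FPKM, against 8.34 and 8.82 FPKM, MUTE had 0.11 and 0.19 FPKM, against 0.30 and 0.20 FPKM, and FAMA overlapped between groups. The 18S ribosomal RNA locus AT3G41768 had 1670 and 4446 FPKM in the hybrid, and 10547 and 7145 FPKM in Ak-1. Mitochondria-encoded loci summed to 580.92 and 774.3 FPKM in the hybrid, and 1177.18 and 1083.65 FPKM in Ak-1. The part of these differences in the results was not tested. In such bulk leaf samples, fewer cells of a type and less RNA per cell cannot be told apart. RBCS1A, a Rubisco small subunit gene that leaves use at a high level, was listed at 0 in both hybrid libraries, against 20051.7 and 20897.1 FPKM in the Ak-1 libraries. A listed 0 may thus be a failed estimate, here in the hybrid group alone, and is given by library.

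Of the 52 members, 34 averaged 1 FPKM or more and were tested, 30 WRKY and 4 VQ genes. Of these, 6 were lower in the hybrid and 0 higher at a Benjamini-Hochberg adjusted p under 0.05 (limma), while 28 were not called. That is 17.6% of the tested members called lower, where 2.51% of all tested loci were called lower and 1.62% higher (4.13% in either direction). The 6 were WRKY53 (AT4G23810), WRKY33 (AT2G38470), WRKY28 (AT4G18170), WRKY15 (AT2G23320), WRKY6 (AT1G62300) and the VQ gene MKS1 (AT3G18690). WRKY53 and WRKY28 reached the tested level through Ak-1 alone, so for these 2 only a lower call was possible, and both count in the share above. Both also count in the member shares and medians below, and in the counts of groups III and IIc. With no filter on low values, both were still called lower (limma adjusted p = 0.0221 and 0.0318). At an unadjusted p under 0.05, 13 members were lower (38.2%, against 12.6% of all tested loci) and 3 higher (8.82%, against 7.61%). The median difference, hybrid minus Ak-1 on the log2(FPKM + 1) scale, was −0.32 over the 34 members and −0.06 over all tested loci; differences ran from −4.49 to 1.1, with 22 below 0 and 12 above. Both hybrid libraries lay below both Ak-1 libraries in 19 members (55.9%; 32.6% of all tested loci) and above them in 8 (23.5%; 20.5% of all tested loci). The calls needed both Ak-1 libraries: with either left out, 0 members were called by limma, 11 had an unadjusted p under 0.05, and 5 or 4 of all 15905 loci were called.

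**Figure D1:**
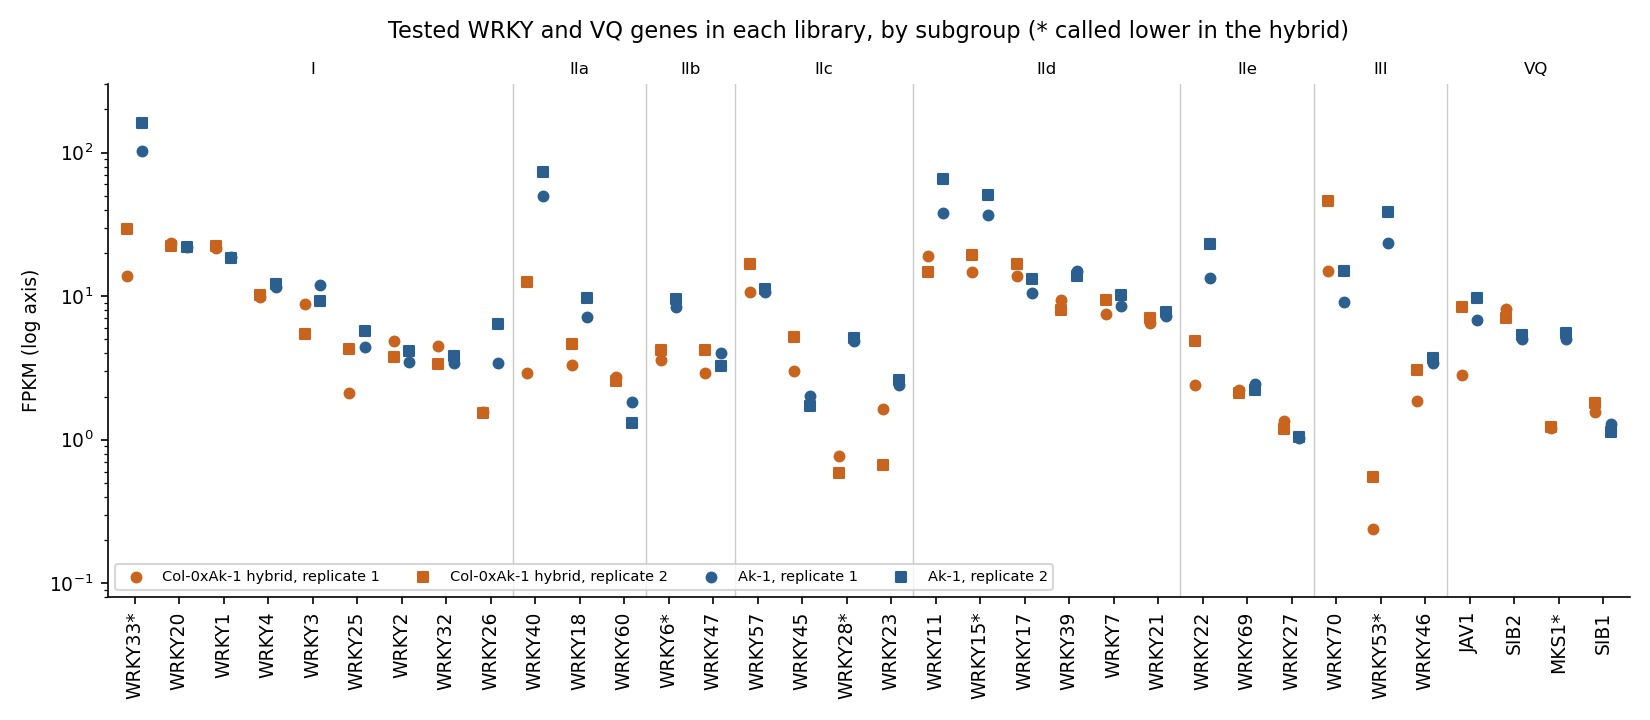
Level of each tested member in each library, in FPKM on a log axis, by WRKY subgroup and VQ partner; hybrid points (orange) stand left of Ak-1 points (blue), circles are replicate 1 and squares replicate 2. WRKY53, WRKY33, WRKY28, WRKY15, WRKY6 and MKS1, the 6 called lower, have both hybrid points under both Ak-1 points.

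The calls were spread over the family. In group I, 1 of 9 tested genes was lower (WRKY33), 1 of 2 in IIb (WRKY6), 1 of 4 in IIc (WRKY28), 1 of 6 in IId (WRKY15), 1 of 3 in III (WRKY53) and 1 of the 4 VQ genes (MKS1). Group IIa had 0 calls by limma among 3 tested genes, and IIe 0 among 3, and no subgroup held a call in the other direction. The median differences were −0.22 in I, −0.92 in IIa, −0.53 in IIb, −0.24 in IIc, −0.40 in IId, −0.07 in IIe, −0.42 in III and −0.17 in the VQ genes, all on the log2(FPKM + 1) scale.

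**Figure D2:**
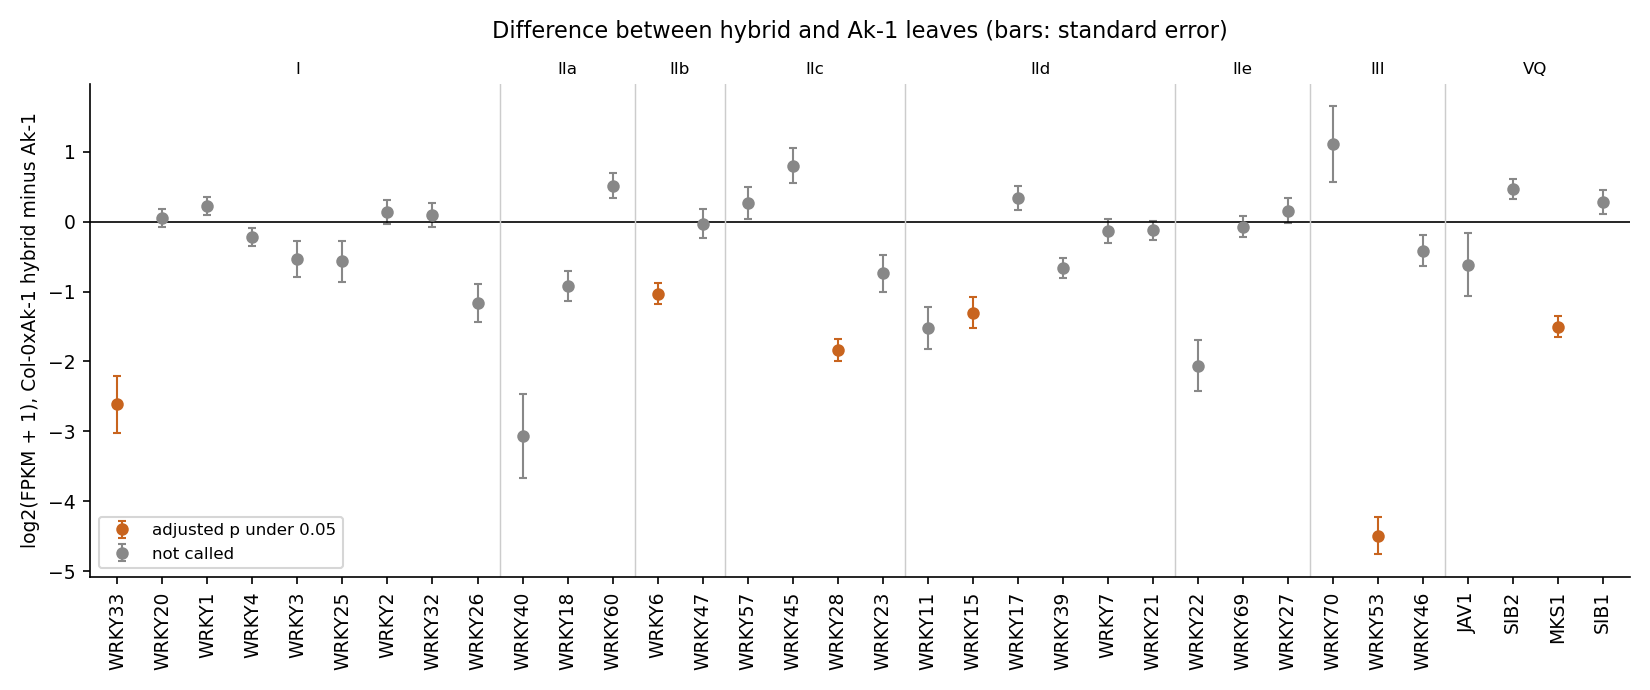
Difference of each tested member, hybrid minus Ak-1 on the log2(FPKM + 1) scale, with its standard error from limma (2 libraries per group). Orange points are the 6 called members, from −4.49 for WRKY53 to −1.03 for WRKY6; WRKY70 has the highest value, 1.1, with a wide error.

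The 300 bases before the annotated start of the 5 called WRKY genes are shown because WRKY proteins bind W-boxes in promoters, WRKY promoters among them. They are the Col-0 reference sequence from RefSeq's TAIR10.1 assembly, read 5′ to 3′ in the direction of the gene; the Ak-1 sequence was not analysed here. Capitals mark the W-box letters searched, TTGACC or TTGACT and on the other strand GGTCAA or AGTCAA; no matches overlap each other here. The stretch of WRKY53 is chr4:12393983-12394282 on the minus strand, that of WRKY33 chr2:16107935-16108234 on the plus strand and that of WRKY28 chr4:10060914-10061213 on the plus strand. The stretch of WRKY15 is chr2:9924586-9924885 on the plus strand and that of WRKY6 chr1:23019495-23019794 on the minus strand, and none of the 5 stretches overlaps another annotated gene.
WRKY53: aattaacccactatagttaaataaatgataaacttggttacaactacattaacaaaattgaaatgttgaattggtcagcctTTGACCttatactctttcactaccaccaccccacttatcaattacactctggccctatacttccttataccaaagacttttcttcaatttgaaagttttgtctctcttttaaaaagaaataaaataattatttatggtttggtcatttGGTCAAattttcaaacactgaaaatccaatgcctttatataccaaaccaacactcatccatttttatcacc
WRKY33: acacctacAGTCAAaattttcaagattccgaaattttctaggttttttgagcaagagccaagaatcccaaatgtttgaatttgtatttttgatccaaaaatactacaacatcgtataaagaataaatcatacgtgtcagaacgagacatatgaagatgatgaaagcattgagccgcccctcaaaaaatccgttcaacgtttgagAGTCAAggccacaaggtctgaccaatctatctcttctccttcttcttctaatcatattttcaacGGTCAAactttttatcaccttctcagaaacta
WRKY28: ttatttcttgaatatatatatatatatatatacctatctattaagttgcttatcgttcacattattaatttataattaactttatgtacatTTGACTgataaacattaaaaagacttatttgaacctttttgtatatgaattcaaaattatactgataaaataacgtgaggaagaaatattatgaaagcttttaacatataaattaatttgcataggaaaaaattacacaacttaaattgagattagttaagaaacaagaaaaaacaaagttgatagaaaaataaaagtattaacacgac
WRKY15: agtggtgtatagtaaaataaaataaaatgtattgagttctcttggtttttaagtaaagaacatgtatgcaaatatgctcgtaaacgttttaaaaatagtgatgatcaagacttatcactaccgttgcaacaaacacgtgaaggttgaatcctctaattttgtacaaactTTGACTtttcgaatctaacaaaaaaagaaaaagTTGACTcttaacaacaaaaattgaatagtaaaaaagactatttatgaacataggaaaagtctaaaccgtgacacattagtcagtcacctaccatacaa
WRKY6: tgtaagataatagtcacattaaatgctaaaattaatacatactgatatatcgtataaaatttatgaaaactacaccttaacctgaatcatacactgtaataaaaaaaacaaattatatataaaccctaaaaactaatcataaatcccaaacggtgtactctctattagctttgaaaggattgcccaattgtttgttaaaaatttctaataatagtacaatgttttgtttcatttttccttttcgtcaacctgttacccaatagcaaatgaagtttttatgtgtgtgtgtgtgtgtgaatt

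WRKY33 had 3 W-boxes, starting 292, 96 and 32 bases before the gene start, WRKY53 had 2 at 219 and 71 bases, and WRKY15 had 2 at 131 and 98 bases. WRKY28 had 1 at 209 bases, and WRKY6 had none of these letters in the window but the core TTGAC once. At least 1 W-box was thus present in 4 of the 5 called WRKY genes, in 8 of 25 tested WRKY genes that were not called and in 8 of 18 WRKY genes that were not tested. The same letters were in 30.8% of the windows of 15476 tested nuclear protein-coding loci, and 2 or more W-boxes in 7.02% of them. Within the family, 2 or more were in 3 of the 5 called genes, 3 of the 25 tested and not called, and 3 of the 18 not tested. These counts describe letters in a window, were not tested, and say nothing of binding in these leaves. WRKY40, at much lower levels in the hybrid although not called, had no W-box letters in its window and the core 2 times.

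**Figure D3:**
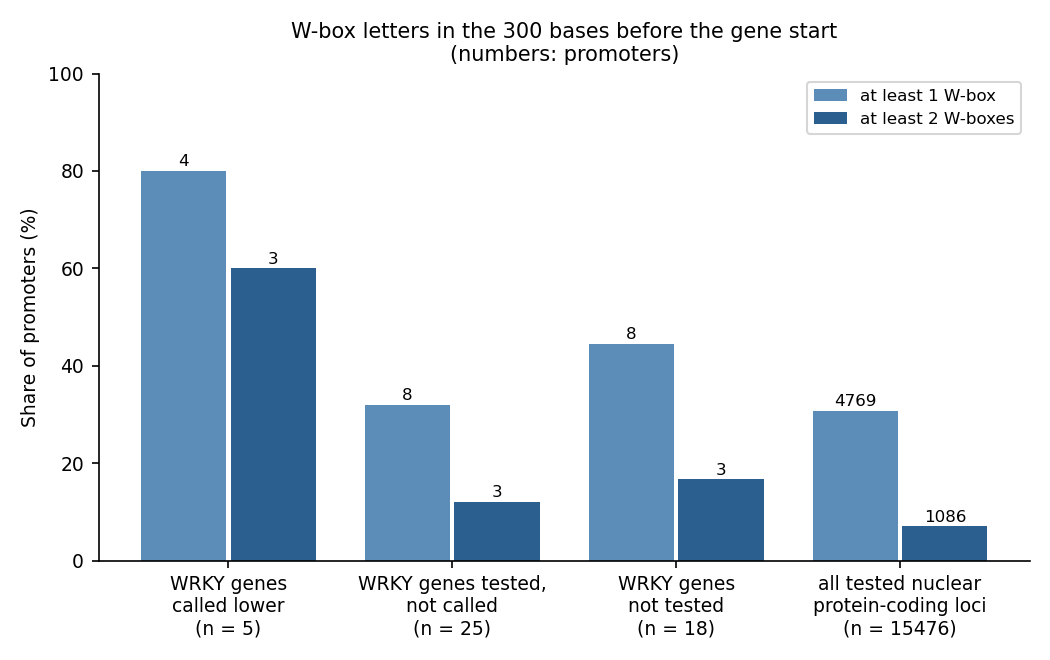
Percent of promoters (300 bases before the gene start, RefSeq TAIR10.1) that hold at least 1 or at least 2 W-boxes, for WRKY genes called lower, WRKY genes tested and not called, WRKY genes not tested, and all tested nuclear protein-coding loci. The shares with at least 1 are 80%, 32%, 44.4% and 30.8%, and the first rests on 5 genes.

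WRKY33, the activator of camalexin synthesis and of resistance to necrotrophic fungi, was the most abundant member in both Ak-1 libraries. It had 13.72 and 29.34 FPKM in the hybrid libraries, against 102.40 and 160.56 FPKM in the Ak-1 libraries, that is 21.5 ± 11 against 131 ± 41.1 FPKM (SD, n = 2 each). Every hybrid value lay below every Ak-1 value, and the Ak-1 mean was 6.11 times the hybrid mean. The difference was −2.61 (SE 0.40, limma adjusted p = 0.0354). The call was lost at an adjusted p of 0.0909 with no filter on low values and of 0.0504 among loci that averaged 5 FPKM or more.

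MKS1 is the VQ protein that ties WRKY33 and WRKY25 to the MAP kinase MPK4, and it was called lower as well. Its values were 1.21 and 1.23 FPKM in the hybrid, against 5.07 and 5.51 FPKM in Ak-1 (1.22 ± 0.0141 against 5.29 ± 0.311 FPKM, SD, n = 2 each). The Ak-1 mean was 4.34 times the hybrid mean, the groups did not overlap, and the difference was −1.5 (SE 0.15, limma adjusted p = 0.0121). The gene overlaps AT3G18680 over 159 bases, which had 21.70 and 26.58 FPKM in the hybrid and 20.28 and 16.68 FPKM in Ak-1, and reads of that stretch cannot be told apart without strand. SIB1 and SIB2, VQ proteins that bind WRKY33 and help defence against Botrytis, were not called. SIB2 (AT2G41180) had 8.13 and 7.01 FPKM in the hybrid, above 5.07 and 5.36 FPKM in Ak-1 (difference 0.46, SE 0.14, limma adjusted p = 0.171), and SIB1 (AT3G56710) had 1.56 and 1.79 FPKM, against 1.28 and 1.14 FPKM (0.27, limma adjusted p = 0.445). SIB2 is wholly overlapped by the noncoding locus AT2G41178, which is listed at 0 in all 4 libraries. JAV1, the repressor of jasmonate defence that is degraded on wounding, was the most abundant VQ member in both Ak-1 libraries and hybrid replicate 2, SIB2 in hybrid replicate 1; JAV1 (AT3G22160) had 2.82 and 8.38 FPKM in the hybrid and 6.85 and 9.72 FPKM in Ak-1. Its groups overlapped (difference −0.62, SE 0.45, limma adjusted p = 0.511).

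The nearest relatives of WRKY33 in group I are WRKY25 and WRKY26, which act with it in heat tolerance. WRKY26 (AT5G07100) had 1.57 and 1.53 FPKM in the hybrid, against 3.44 and 6.36 FPKM in Ak-1, without overlap (−1.16, SE 0.27, limma adjusted p = 0.0954). WRKY25 (AT2G30250) had 2.1 and 4.29 FPKM, against 4.39 and 5.70 FPKM (−0.57, limma adjusted p = 0.359), and its groups were set apart by a small gap. Below Ak-1 without a call were also WRKY3 and WRKY4, a pair of group I factors in resistance to necrotrophs. WRKY3 (AT2G03340) had 8.86 and 5.43 FPKM in the hybrid, against 11.97 and 9.23 FPKM in Ak-1 (−0.53, limma adjusted p = 0.327). WRKY4 (AT1G13960) had 9.89 and 10.16 FPKM, against 11.61 and 12.15 FPKM (−0.22, limma adjusted p = 0.407). WRKY1, listed in RefSeq as ZAP1, and WRKY20 were abundant in every library with small differences. WRKY1 (AT2G04880) had 21.82 and 22.36 FPKM in the hybrid, against 18.85 and 18.57 FPKM in Ak-1 (0.23, limma adjusted p = 0.397). WRKY20 (AT4G26640) had 23.51 and 22.25 FPKM, against 21.97 and 21.95 FPKM (0.06, limma adjusted p = 0.857). WRKY2 and WRKY32 differed by 0.14 and 0.09 (limma adjusted p = 0.729 and 0.822), with every value between 3.39 and 4.85 FPKM, and both signs turned without hybrid replicate 1.

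WRKY22 and WRKY29 of group IIe act downstream of the flagellin-triggered MAP kinase cascade. WRKY22 (AT4G01250) had 2.39 and 4.89 FPKM in the hybrid, against 13.34 and 23.19 FPKM in Ak-1, a 5.02-fold higher mean in Ak-1 with no overlap. Its difference of −2.06 (SE 0.36) just missed the threshold, with a limma adjusted p of 0.0509. WRKY29 was too low to test, at 1.71 and 0.62 FPKM in the hybrid and 0.46 and 0.64 FPKM in Ak-1, with overlap. The other tested group IIe genes, WRKY27 and WRKY69, lay between 1.03 and 2.45 FPKM in every library (0.16 and −0.07); the sign of WRKY69 turned with quantile normalization.

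Group IIa consists of WRKY18, WRKY40 and WRKY60, proteins that pair with each other and restrain basal defence and abscisic acid responses. WRKY40 (AT1G80840) had 2.93 and 12.65 FPKM in the hybrid, against 49.81 and 73.40 FPKM in Ak-1 (7.79 ± 6.87 against 61.6 ± 16.7 FPKM, SD, n = 2 each). It was the second most abundant member in both Ak-1 libraries, and ranked 20 and 9 in the hybrid libraries. The Ak-1 mean was 7.91 times the hybrid mean and the groups did not overlap, but the hybrid libraries differed 4.32-fold between themselves, and WRKY40 was not called (−3.07, SE 0.60, limma adjusted p = 0.0651). Against the Ak-1 mean, WRKY40 differed by −3.97 in hybrid replicate 1 alone and by −2.17 in replicate 2 alone. A fit with 1 hybrid library left out drops the spread between them, so a call gained there does not strengthen the result. WRKY18 (AT4G31800) had 3.33 and 4.66 FPKM, against 7.20 and 9.69 FPKM (−0.92, SE 0.21, limma adjusted p = 0.0966). WRKY60 lay the other way, with 2.75 and 2.55 FPKM in the hybrid, against 1.83 and 1.31 FPKM in Ak-1 (0.51, SE 0.18, limma adjusted p = 0.207). Both hybrid values were thus below Ak-1 in WRKY18 and WRKY40 and above it in WRKY60.

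Group IId proteins bind calmodulin, a calcium sensor, and all 6 were tested. WRKY15, known from growth and oxidative stress, had 14.83 and 19.40 FPKM in the hybrid, against 36.81 and 51.05 FPKM in Ak-1 (17.1 ± 3.23 against 43.9 ± 10.1 FPKM, SD, n = 2 each). Its groups did not overlap, the Ak-1 mean was 2.57 times the hybrid mean, and the difference was −1.30 (SE 0.22, limma adjusted p = 0.0467). That call is close to the threshold and held under 2 of 13 alternatives, a pseudocount of 0.5 and the replicate block. It was lost with a pseudocount of 0.1 (0.0503), among loci that averaged 5 FPKM or more (0.0613), with eBayes without a trend (0.0507), with the crossed pairing (0.0605), without hybrid replicate 1 (0.0807) or 2 (0.0729), and with median-of-ratios scaling (0.0638), quantile normalization (0.0537) and no filter on low values (0.0964), and without either Ak-1 library (at most 0.323). WRKY11 and WRKY17 are closely related negative regulators of basal resistance, and their values lay in opposite directions. WRKY11 (AT4G31550) had 18.99 and 14.66 FPKM in the hybrid, against 37.74 and 65.66 FPKM in Ak-1 (−1.52, SE 0.30, limma adjusted p = 0.0651), while WRKY17 (AT2G24570) had 13.76 and 16.80 FPKM, against 10.60 and 13.19 FPKM (0.34, SE 0.18, limma adjusted p = 0.367). The hybrid was thus wholly below Ak-1 in WRKY11 and wholly above it in WRKY17, and neither was called. Of 13 alternatives, the crossed pairing, added after seeing the data, was the only one that called WRKY11 (0.0212). WRKY39 (AT3G04670) had 9.39 and 7.97 FPKM, against 14.90 and 13.77 FPKM (−0.67, SE 0.15, limma adjusted p = 0.0867). WRKY7 overlapped between groups and WRKY21 lay just below Ak-1, at 6.53 to 9.35 FPKM in the hybrid and 7.24 to 10.26 FPKM in Ak-1.

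Several members are known from leaf senescence, WRKY53 and WRKY6 as factors that rise with it and WRKY70 and WRKY54 as factors that hold it back. WRKY53 showed the widest difference of any tested member. It had 0.24 and 0.55 FPKM in the hybrid, against 23.59 and 38.32 FPKM in Ak-1 (0.395 ± 0.219 against 31.0 ± 10.4 FPKM, SD, n = 2 each), so the hybrid mean was 1.28% of the Ak-1 mean. The gene ranked 5 among members in both Ak-1 libraries and 39 and 35 in the hybrid libraries, and the difference was −4.49 (SE 0.27, limma adjusted p = 0.00447). Its annotated end overlaps 341 bases of 3xHMG-box2 on the opposite strand, which had 1.93 and 1.83 FPKM in the hybrid and 2.94 and 2.99 FPKM in Ak-1. WRKY6 of group IIb, which also represses the phosphate exporter gene PHO1, had 3.57 and 4.20 FPKM in the hybrid, against 8.42 and 9.57 FPKM in Ak-1 (−1.03, SE 0.15, limma adjusted p = 0.0320). The groups did not overlap and the Ak-1 mean was 2.32 times the hybrid mean; the call was lost without hybrid replicate 1 (0.0526) or 2 (0.0588) and with no filter on low values (0.0807).

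WRKY70 links salicylic acid and jasmonate defence, and was the most abundant member of group III in both hybrid libraries, while WRKY53 was in both Ak-1 libraries. It had 15.00 and 45.94 FPKM in the hybrid, against 9.11 and 15.08 FPKM in Ak-1 (30.5 ± 21.9 against 12.1 ± 4.22 FPKM, SD, n = 2 each). Hybrid replicate 1 lay within the Ak-1 range and replicate 2 far above it, and the difference of 1.1 (SE 0.54) was not called (limma adjusted p = 0.339). It was the most abundant member in hybrid replicate 2. WRKY54, its closest relative, was under 1 FPKM throughout, at 0.31 and 0.27 FPKM in the hybrid and 0.09 and 0.12 FPKM in Ak-1, and its neighbouring locus WRKY55 (AT2G40740) had 0.10 and 0 FPKM, against 0.07 and 0 FPKM. WRKY46, which acts with WRKY70 and WRKY53 in basal defence, had 1.86 and 3.08 FPKM, against 3.41 and 3.71 FPKM (−0.42, limma adjusted p = 0.364). WRKY30 and WRKY41, the other near relatives of WRKY53, were too low to test; WRKY30, a factor of early defence, had 0.07 and 0.12 FPKM in the hybrid, against 1.71 and 1.52 FPKM in Ak-1, and was called only when no filter on low values was set (−1.26, limma adjusted p = 0.0271). WRKY41 (AT4G11070) had 0.14 and 0 FPKM, against 0.06 and 0 FPKM.

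WRKY28 of group IIc is known as an activator of the salicylic acid synthesis gene ICS1. It had 0.77 and 0.59 FPKM in the hybrid, against 4.89 and 5.10 FPKM in Ak-1 (0.68 ± 0.127 against 5.0 ± 0.148 FPKM, SD, n = 2 each). The Ak-1 mean was 7.35 times the hybrid mean, the libraries of each group lay close together, and the difference was −1.84 (SE 0.16, limma adjusted p = 0.00910). WRKY8, another group IIc factor, had 0.45 and 0.32 FPKM, against 1.17 and 1.84 FPKM, and was not tested for its low mean; with no filter it was not called (limma adjusted p = 0.125). WRKY57, the most abundant group IIc gene and a factor of drought tolerance, had 10.65 and 16.77 FPKM in the hybrid, against 10.74 and 11.16 FPKM in Ak-1, with overlap (0.27, limma adjusted p = 0.58); its sign turned without hybrid replicate 2. WRKY23, an auxin-responsive factor, had 1.63 and 0.67 FPKM, against 2.42 and 2.59 FPKM (−0.74, SE 0.26, limma adjusted p = 0.206). Its difference was −0.41 in hybrid replicate 1 alone and −1.07 in replicate 2 alone.

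WRKY45 and WRKY75 both act on phosphate uptake genes. WRKY45 (AT3G01970) had 2.99 and 5.21 FPKM in the hybrid, against 2.01 and 1.73 FPKM in Ak-1, without overlap (0.80, SE 0.25, limma adjusted p = 0.172). Its difference was 0.48 in hybrid replicate 1 alone and 1.12 in replicate 2 alone. WRKY75 was low, at 0.06 and 0.21 FPKM in the hybrid and 0.08 and 0.14 FPKM in Ak-1. WRKY42, which acts with WRKY6 on PHO1, had 0.34 and 0.23 FPKM, against 0.39 and 0.21 FPKM. The remaining group IIb gene tested, WRKY47, had 2.93 and 4.25 FPKM, against 4.05 and 3.25 FPKM; its difference of −0.03 took the other sign with median-of-ratios scaling and with quantile normalization. WRKY44, known as TTG2 from trichomes and the seed coat, had 0.10 and 0.35 FPKM in the hybrid and 0.14 and 0.27 FPKM in Ak-1.

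The 18 members under a mean of 1 FPKM were WRKY8, WRKY14, WRKY29, WRKY30, WRKY31, WRKY35, WRKY38, WRKY41, WRKY42, WRKY44, WRKY48, WRKY50, WRKY51, WRKY54, WRKY55, WRKY65, WRKY72 and WRKY75. Of these, 15 stayed under 1 FPKM in all 4 libraries, and WRKY14 and WRKY38 were listed at 0 in all 4. WRKY50 and WRKY51 mediate repression of jasmonate signalling when oleic acid is low, and they lay in opposite directions: WRKY50 (AT5G26170) had 0.09 and 0.20 FPKM in the hybrid, against 0.59 and 0.31 FPKM in Ak-1, and WRKY51 (AT5G64810) had 0.19 and 0.30 FPKM, against 0.09 and 0 FPKM. WRKY48, a repressor of basal defence, had 0.41 and 0.35 FPKM, against 0.62 and 0.67 FPKM. WRKY65 (AT1G29280) had 0.09 and 0.52 FPKM, against 0.12 and 0.27 FPKM. WRKY31, WRKY35 and WRKY72 had at most 0.06 FPKM in any library. Both hybrid libraries lay below both Ak-1 libraries in WRKY8, WRKY30, WRKY48 and WRKY50 and above them in WRKY51 and WRKY54, at levels where a small count of fragments can set the order.

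Summed over the 48 WRKY genes, the level was 220.5 and 290.6 FPKM in the hybrid libraries, against 447.3 and 611.6 FPKM in the Ak-1 libraries. WRKY33 made up 6.22% and 10.1% of the hybrid sums, against 22.9% and 26.3% of the Ak-1 sums, and WRKY40 made up 1.33% and 4.35%, against 11.1% and 12.0%. The 5 WRKY genes that were highest in both Ak-1 libraries, WRKY33, WRKY40, WRKY11, WRKY15 and WRKY53, together made up 23.0% and 26.4% of the hybrid sums, against 56.0% and 63.6% of the Ak-1 sums. Without them the sum was 169.8 and 214.0 FPKM in the hybrid, against 196.9 and 222.6 FPKM in Ak-1, so the ranges of the groups overlapped. These 5 were chosen after their values were seen and by their Ak-1 levels, which by itself favours a lower hybrid value, so no test was made. WRKY1 and WRKY20 made up 20.6% and 15.4% of the hybrid sums, against 9.13% and 6.63% of the Ak-1 sums. At least 1 FPKM was reached by 29 and 27 WRKY genes in the hybrid libraries, against 32 and 32 in the Ak-1 libraries. The same count over all loci was not made, so this cannot be read as a trait of the family. Above 0 FPKM were 21398 and 21752 of all loci in the hybrid libraries, against 21031 and 21261 in the Ak-1 libraries.

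**Figure D4:**
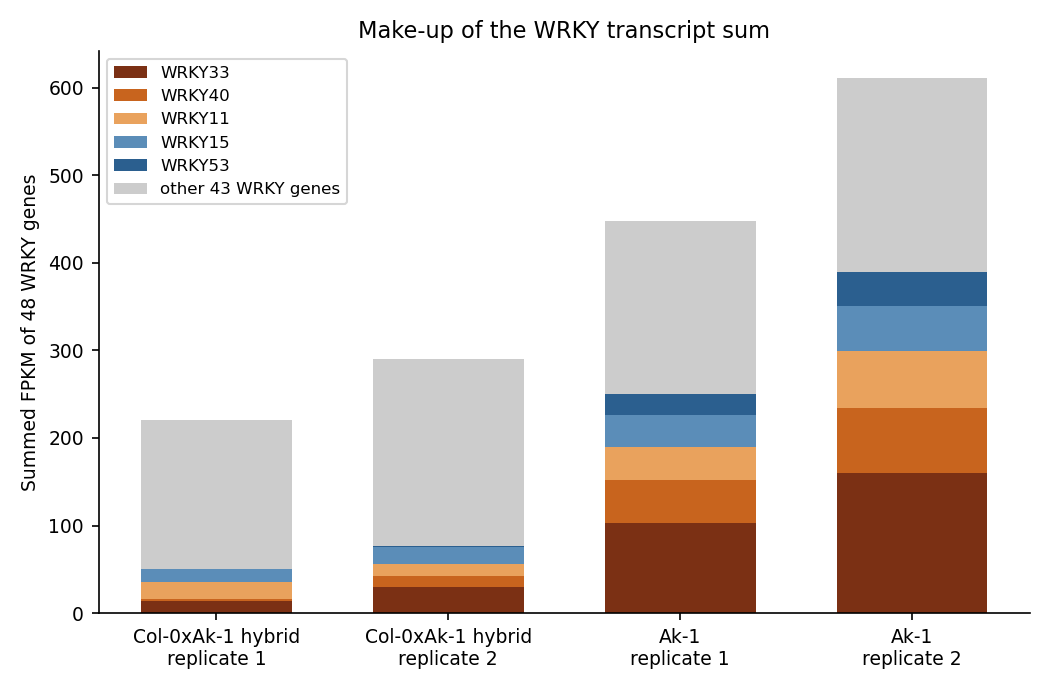
FPKM summed over the 48 WRKY genes in each library, split into WRKY33, WRKY40, WRKY11, WRKY15, WRKY53 and the other WRKY genes; hybrid bars stand left of Ak-1 bars. The bars reach 220.5 and 290.6 FPKM in the hybrid, against 447.3 and 611.6 FPKM in Ak-1, and the part of the other genes is 169.8 and 214.0, against 196.9 and 222.6 FPKM.

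The hybrid libraries were also set against the Ak-1 mean one at a time. The median member difference was −0.26 in hybrid replicate 1, against −0.13 in replicate 2, where all tested loci had −0.08 and −0.03. More than 2-fold separated the hybrid libraries in 8 of the 34 members (23.5%, against 7.94% of all tested loci). It separated the Ak-1 libraries in 0 members, and in only 278 of all 15905 tested loci. The 8 were WRKY40, WRKY70, JAV1, WRKY23, WRKY53, WRKY33, WRKY22 and WRKY25, and all but WRKY23 were higher in replicate 2. In Ak-1, all 8 were higher in replicate 2 than in replicate 1, by less than 2-fold. WRKY53, WRKY33 and WRKY40 lay far below Ak-1 in both hybrid libraries, whereas JAV1 lay within the Ak-1 range in replicate 2, and WRKY70 within it in replicate 1 and above it in replicate 2.

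**Figure D5:**
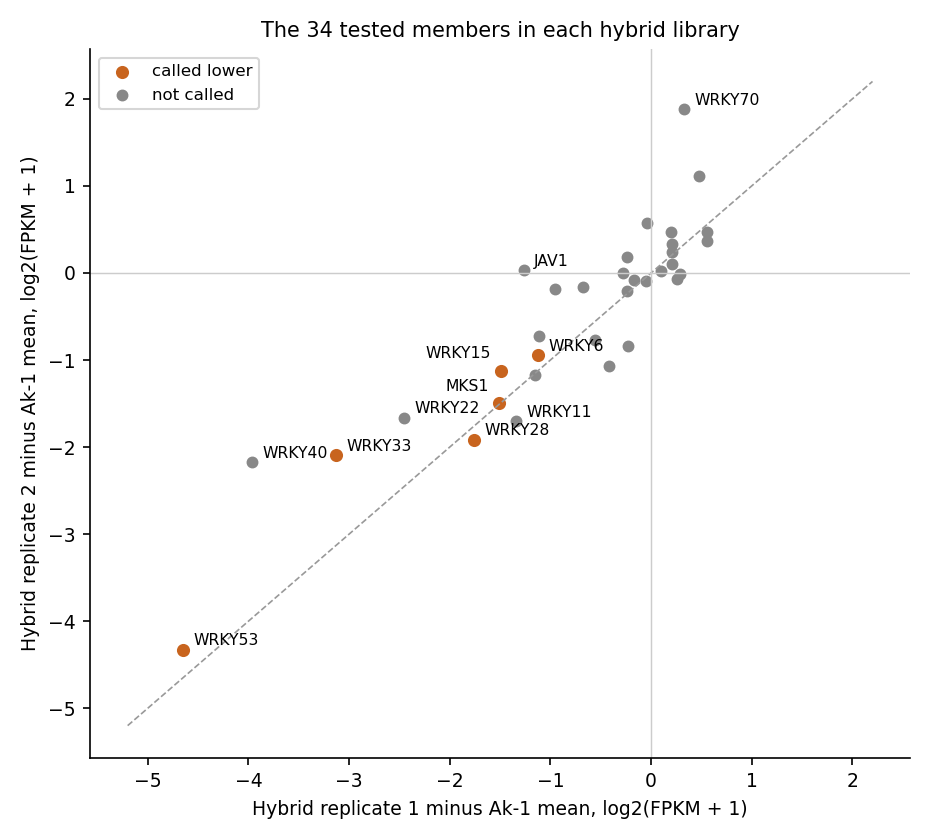
Difference of each tested member from the Ak-1 mean on the log2(FPKM + 1) scale, in hybrid replicate 1 (horizontal axis) and hybrid replicate 2 (vertical axis), with a dashed line of equal values and called members in orange. The 6 called members lie below 0 on both axes; WRKY70 lies above 0 on both and stands highest in replicate 2.

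Genes of the surrounding pathways were counted from 9 lists with 122 loci, of which 57 were tested, 10 called lower and 0 called higher, where 2.51% of all tested loci were lower and 1.62% higher. At an unadjusted p under 0.05, 12.6% of all tested loci were lower and 7.61% higher. Among 30 other VQ-motif loci, 14 were tested, 5 were lower, 0 higher and 9 not called, with a median difference of −0.54. AT3G56880, the most abundant of the 5, had 26.69 and 23.73 FPKM in the hybrid, against 77.65 and 129.42 FPKM in Ak-1 (−1.95, limma adjusted p = 0.0264); its call was lost without hybrid replicate 1 (0.0555) or 2 (0.0939). AT1G17147 had 1.18 and 0.99 FPKM, against 10.70 and 24.04 FPKM (−3.04, limma adjusted p = 0.0198), a 16.0-fold higher mean in Ak-1 whose call was lost with either hybrid library left out (0.0513 and 0.0803). AT1G21326 had 0.06 and 0.22 FPKM, against 2.98 and 4.78 FPKM (−2.08, limma adjusted p = 0.0186). AT1G78410 and AT2G22880 were lower too (−1.81 and −1.88; limma adjusted p = 0.0215 and 0.0256). AT1G78410 had 0.55 and 0.32 FPKM in the hybrid, against 3.25 and 4.88 FPKM in Ak-1, and AT2G22880 had 0.40 and 0 FPKM, against 2.85 and 3.96 FPKM. These 2 genes and AT1G21326 reached the tested level through Ak-1 alone. AT2G22880 is wholly overlapped on the opposite strand by AT2G22870 (EMB2001), for which the difference was −0.46 (limma adjusted p = 0.556), and reads of the pair cannot be told apart without strand. Without hybrid replicate 2, AT1G21326, AT1G78410 and AT2G22880 lost their calls as well (0.0506, 0.0652 and 0.0533). With no filter on low values, AT1G21326 alone of the 5 was still called (0.0486), and the others had adjusted p from 0.0562 to 0.069. AT2G22880 also lost its call with a pseudocount of 0.1 (0.0797). Together with the 4 VQ members, 6 of 18 tested VQ genes were lower, against 2.51% of all tested loci. That count includes AT1G21326, AT1G78410 and AT2G22880, for which only a lower call was possible. The lists were also drawn up with earlier results known, and an excess was not tested. Among 24 WRKY loci outside the set, 3 were tested and 0 called by limma, with 1 at an unadjusted p under 0.05: RRS1, a resistance gene with a WRKY domain, had 2.27 and 2.07 FPKM in the hybrid, against 1.18 and 1.11 FPKM in Ak-1 (0.56, limma adjusted p = 0.150).

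Upstream of the WRKY proteins, 11 of 13 listed MAP kinase cascade genes were tested and 0 were called by limma, with a median difference of −0.12. MPK3, which phosphorylates WRKY33, was the only one at an unadjusted p under 0.05, with 26.19 and 41.89 FPKM in the hybrid, against 55.24 and 82.22 FPKM in Ak-1 (−1.0, SE 0.30, limma adjusted p = 0.157). Downstream, 4 of 8 listed camalexin, indole glucosinolate and ethylene genes linked to WRKY33 were tested and 2 were lower. The median difference of the 4 was −1.62, with 3 below 0 and 1 above. CYP81F2, an enzyme of indole glucosinolate modification, reached the tested level through Ak-1 alone. It had 0.42 and 1.06 FPKM in the hybrid, against 18.13 and 20.24 FPKM in Ak-1 (−3.56, SE 0.22, limma adjusted p = 0.00464). MYB51, a regulator of that pathway, had 2.95 and 4.36 FPKM, against 12.61 and 17.56 FPKM (−1.79, SE 0.23, limma adjusted p = 0.0235), and its call was lost with no filter on low values (0.069). The other 2 tested genes were not called. The ethylene gene ACS6 had 17.97 and 54.18 FPKM in the hybrid, against 80.12 and 94.22 FPKM in Ak-1 (−1.44, SE 0.50, limma adjusted p = 0.204). CYP83B1 overlapped between groups (0.03, limma adjusted p = 0.950). The camalexin enzyme genes PAD3 and CYP71A13 were low, with hybrid values above Ak-1: PAD3 had 0.36 and 1.32 FPKM in the hybrid, against 0.15 and 0.26 FPKM in Ak-1, and CYP71A13 had 0.47 and 2.24 FPKM, against 0.11 and 0.20 FPKM. Both were under the tested level, and both were chosen after their values were seen.

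In the pattern-triggered immunity list, 6 of 12 genes were tested, with a median difference of −1.02. At an unadjusted p under 0.05, 3 were lower (50%, against 12.6% of all tested loci) and 0 higher. Only the receptor-like kinase gene BIK1 was called lower. It had 4.01 and 3.19 FPKM in the hybrid, against 11.63 and 13.21 FPKM in Ak-1 (−1.55, SE 0.16, limma adjusted p = 0.0133). In the phosphate list, 3 of 7 were tested and 2 were lower. SPX1, a phosphate sensor gene, had 6.54 and 5.87 FPKM in the hybrid, against 17.23 and 17.29 FPKM in Ak-1 (−1.34, SE 0.13, limma adjusted p = 0.0121), and the acid phosphatase gene PAP17 had 8.41 and 6.27 FPKM, against 15.96 and 16.37 FPKM (−1.05, limma adjusted p = 0.0407). PAP17 overlaps AT3G17800 over 122 bases. The call of PAP17 was lost without hybrid replicate 2 (0.068), with the replicate block (0.0631), with no filter on low values (0.0882), among loci that averaged 5 FPKM or more (0.0524) and with either scaling (0.0632 and 0.0621). PHO1, the gene WRKY6 represses, had 2.45 and 2.45 FPKM, against 2.13 and 2.43 FPKM, and was not called.

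The salicylic acid list had 10 of 14 genes tested and 0 called by limma, with a median difference of −0.05. At an unadjusted p under 0.05, 2 were lower (20%, against 12.6% of all tested loci) and 1 higher (10%, against 7.61%). The regulator gene CBP60G came nearest to a call, with 2.02 and 3.35 FPKM in the hybrid, against 7.12 and 10.51 FPKM in Ak-1 (−1.42, SE 0.26, limma adjusted p = 0.0568), while ICS1 had 6.80 and 6.97 FPKM, against 8.15 and 7.38 FPKM. The senescence list had 6 of 7 tested and 0 called by limma, with a median of −0.51. There, 2 were lower at an unadjusted p under 0.05 (33.3%, against 12.6% of all tested loci) and 0 higher. The senescence factor gene NAP had 52.98 and 80.01 FPKM, against 137.23 and 171.19 FPKM (−1.22, SE 0.25, limma adjusted p = 0.0700). Of 8 trichome and seed coat partners of WRKY44, only TTG1 was tested, with 35.99 and 35.44 FPKM in the hybrid, against 30.74 and 39.58 FPKM in Ak-1 (0.03, limma adjusted p = 0.938).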

How the data were processed

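RNA-seq of 4 first-leaf libraries in 2 groups of 2 was used, grouped by the sample titles. Per the labels' protocols, RNA came from a Qiagen RNeasy kit and libraries from the TruSeq V2 kit, which does not mark strand. The deposited files hold 1 FPKM value per locus, which the authors normalized by transcript length and mapped fragments. The submitters' processing notes list TAIR10, Cufflinks 2.0.2, TopHat2 2.0.8b, TopHat and edgeR 3.12.0; their roles, and how reads matching several loci were counted, are not given in the sources used here, so close relatives may share reads. Total depth is unknown.

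Loci that averaged 1 FPKM or more (15905) entered a limma fit of log2(FPKM + 1), hybrid minus Ak-1 (limma 3.58.1, R 4.3.3; eBayes with a trend, 2 residual and 3.18 prior degrees of freedom). Tests were two-sided, and a call means a Benjamini-Hochberg adjusted p under 0.05 over all these loci. This log2 scale understates the change of low genes. In a simulation of this comparison over 15905 loci, noise was equal in both groups and set by level alone, with no difference in spread between genes of equal level. Changes were set in loci of higher level. The fit called 99 of 100 genes changed by 1 (log2), 100 of 100 changed by 2 and 15 of 15705 unchanged genes. Real genes of equal level differ in spread, and WRKY40 (−3.07) and WRKY22 (−2.06) were not called, so these rates do not carry over to the members. Names, overlaps and promoters came from RefSeq TAIR10.1, in which 31416 of 34133 loci matched by locus; no coordinate of the deposited files was used. Promoters are given for WRKY genes; that of MKS1 is not reported here.

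The members and lists were chosen with earlier results of these data known. Named genes were every called member, every member at an unadjusted p under 0.05, the most abundant of each subgroup, members too low to test and near relatives; from each pathway list up to 3 called genes of largest difference, or the gene of smallest adjusted p in lists without a call. Other genes of those lists (AT1G78410, AT2G22880, PHO1, ICS1, ACS6, CYP83B1, PAD3 and CYP71A13), and WRKY members given as roles, were named after their values were seen. Alternatives were other pseudocounts, filters and scalings, eBayes without a trend, a replicate block, and leaving out each library.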

Additional observations from a re-analysis of the deposited data

How the results depend on the processing

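WRKY53, WRKY28 and MKS1 were called under every alternative that tested them except leaving out an Ak-1 library, after which 0 members, 0 pathway genes and at most 5 loci were called. Main counts were 6 members lower and 0 higher, 6 subgroups with a call (VQ genes counted as one), 10 pathway genes and 657 of all loci (257 higher, 400 lower). With no filter on low values, the counts were 4 members lower, 3 subgroups with a call, 4 pathway genes, and 351 loci (178 higher, 173 lower). Among loci that averaged 5 FPKM or more, where only 20 members are tested, they were 2, 2, 6 and 298 (92 higher, 206 lower). Leaving out 1 library at a time gave 0 to 6 members lower, 0 to 1 higher (WRKY45), 0 to 5 subgroups with a call, 0 to 9 pathway genes, 4 to 1311 loci in all, 3 to 560 higher and 1 to 751 lower. Most loci were called without hybrid replicate 1, fewest without an Ak-1 library; the lone library left is assumed to vary like the other group, and the cause was not tested. The median difference of the tested members was −0.15 (no filter), −0.42 (average of 5 FPKM or more) and −0.14 (quantile normalization) in hybrid replicate 1, against −0.26 in the main result, and −0.47 (average of 5 FPKM or more) in replicate 2, against −0.13.

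The replicate block called 8 members lower (WRKY22 and WRKY40 were added) and 0 higher, 12 pathway genes, and 200 loci higher and 365 lower. Across all tested loci, same-numbered libraries did not deviate together (correlation −0.14), which cannot tell whether they shared a batch. Replicate 2 was above replicate 1 in 21 of the 34 tested members in the hybrid and in 25 in Ak-1. Over all 15905 tested loci it was above in 8886 in the hybrid and 6556 in Ak-1. A shared origin of same-numbered libraries was not tested. The crossed pairing, added after seeing the data, called 6 members (WRKY11 in place of WRKY15) and 11 pathway genes, and 262 loci higher and 439 lower.

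Signs that turned belonged to uncalled genes: WRKY47 had 0.022 with median-of-ratios scaling and 0.075 with quantile normalization, and WRKY69 0.031 with quantile normalization. With 1 library left out, WRKY2 ran from −0.013 to 0.28, WRKY32 from −0.074 to 0.26, WRKY47 from −0.24 to 0.18, WRKY57 from −0.036 to 0.57, JAV1 from −1.26 to 0.032 and TTG1 from −0.14 to 0.21. Of the alternative values of tested members, 386 kept their direction and side of the threshold, 26 lost and 7 gained a call, and 9 changed sign. Depth limits the precision of genes under 1 FPKM.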
